A study of Mus musculus with 16 samples.

Results

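The pericyte and smooth muscle genes described here are 34 genes chosen by symbol from the 52459 genes of a count table made from sorted mouse bone marrow stromal cells. They comprise 8 genes that mark pericytes, 21 genes of the smooth muscle contractile apparatus, 2 transcriptional regulators of that apparatus (Srf and Myocd), and 3 further genes of mural cells or muscle (Aoc3, Sncg and Mustn1). All 34 were found in the table, and 33 of them were among the 17316 genes that passed the filter on low counts and were tested. Actg2 did not pass it.

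The cells came from enzymatically digested bone marrow of Townes sickle mice and were sorted as live single cells lacking CD45, Ter119 and CD31 and carrying CD51 and CD140a, a gate used for mesenchymal stromal cells. In SS mice, both beta globin loci hold the human sickle allele, placed with the human A-gamma globin gene in the position of the mouse beta globin genes (hα/hα::βS/βS). SA mice have 1 sickle allele and 1 normal human beta globin allele (hα/hα::βA/βS), and so carry the sickle allele too. Mice of both genotypes have human in place of mouse alpha globin. Each genotype has 4 libraries, 1 per mouse by the titles, written below as SS1 to SS4 and SA1 to SA4, and each was sequenced on 2 lanes. The labels give no age, sex or disease measure, and nothing in them beyond the title numbers says that the libraries are separate animals. If they are not, the p-values describe technical spread.

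Pericytes sit on the outside of capillaries and smooth muscle cells wrap larger vessels; both are called mural cells. Pericytes of many mouse tissues are recognised by Rgs5, which switches off G protein signalling, and by the potassium channel that Kcnj8 and Abcc9 encode together. Smooth muscle cells contract when calcium activates the kinase Mylk, which phosphorylates the light chain Myl9 and lets the myosin Myh11 pull on actin filaments. The genes of this apparatus are switched on by the DNA-binding factor Srf, mostly with its cofactor Myocd, through a short element named the CArG box. In bone marrow, perivascular stromal cells and mural cells lie against the same vessels and share markers such as Pdgfrb.

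Several libraries stood apart in ways other than these genes. SS4 matters most below, and 1 of its 2 lanes is titled SS but has SA as its source and mouse group; the library was kept in SS by its title. SS2 had 57347 counts of Xist and 12 of the Y-linked Ddx3y, against at most 420 of Xist and at least 2282 of Ddx3y in each of the other libraries. Date-like numbers in the titles take 3 values, with 1 shared by all SA libraries and none shared by both genotypes. Whatever they stand for and the genotype thus cannot be told apart. Of the 2 values in SS, 1 belongs to SS2 alone. What that number stands for cannot be told apart from the difference of SS2 in Xist and Ddx3y. Total counts ran from 24797857 to 31117007 per library. The sorted antigens were present in every library: Pdgfra, which encodes CD140a, was at 331 to 481 CPM (counts scaled to the library total) in SS and 169 to 476 CPM in SA, and Itgav, which encodes CD51, at 389 to 820 CPM in SS and 252 to 427 CPM in SA. Ptprc, which encodes the excluded CD45, was nonetheless at 49.7 to 499 CPM in SS and 124 to 748 CPM in SA.

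Most of these genes were higher in SS than in SA, and the pericyte genes by more than the contractile genes. Of the 33 tested, 30 had a higher fitted level in SS and 3 a lower one (Higd1b, Cnn1 and Mrvi1), where 48.98% of all genes tested were higher. The median log2 fold change of SS over SA was 0.87 over the 33 genes, 1.96 over the 8 pericyte genes, 0.66 over the 20 contractile genes tested and -0.01 over all genes tested. Fold changes and their standard errors (SE) are edgeR's throughout. No member passed edgeR's quasi-likelihood test with Benjamini-Hochberg adjustment over all genes, whose adjusted p-values for the 33 ran from 0.411 (Synpo2) to 0.991 (Higd1b). That test called 0 of 17316 genes (0.0%). At an unadjusted p under 0.05, 11 of the 33 were higher and 0 were lower, against 4.03% of all genes tested that were higher: 6 pericyte genes (Rgs5, Rgs4, Kcnj8, Abcc9, Trpc6 and Art3), 4 contractile genes (Myl9, Mylk, Cald1 and Synpo2) and Aoc3. DESeq2, run on the same counts, called 0.914% of its genes higher in SS at an adjusted p under 0.05, and among them 5 members: Rgs5, Kcnj8, Art3, Synpo2 and Aoc3. In 4 members (Rgs5, Art3, Synpo2 and Aoc3) every SS library lay above every SA library, which held for 2.36% of all genes tested. Since the genes were chosen with earlier results of these libraries known, these counts describe them and test nothing about them as a group. In bulk RNA, more cells of a type and more RNA per cell cannot be told apart.

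**Figure D1:**
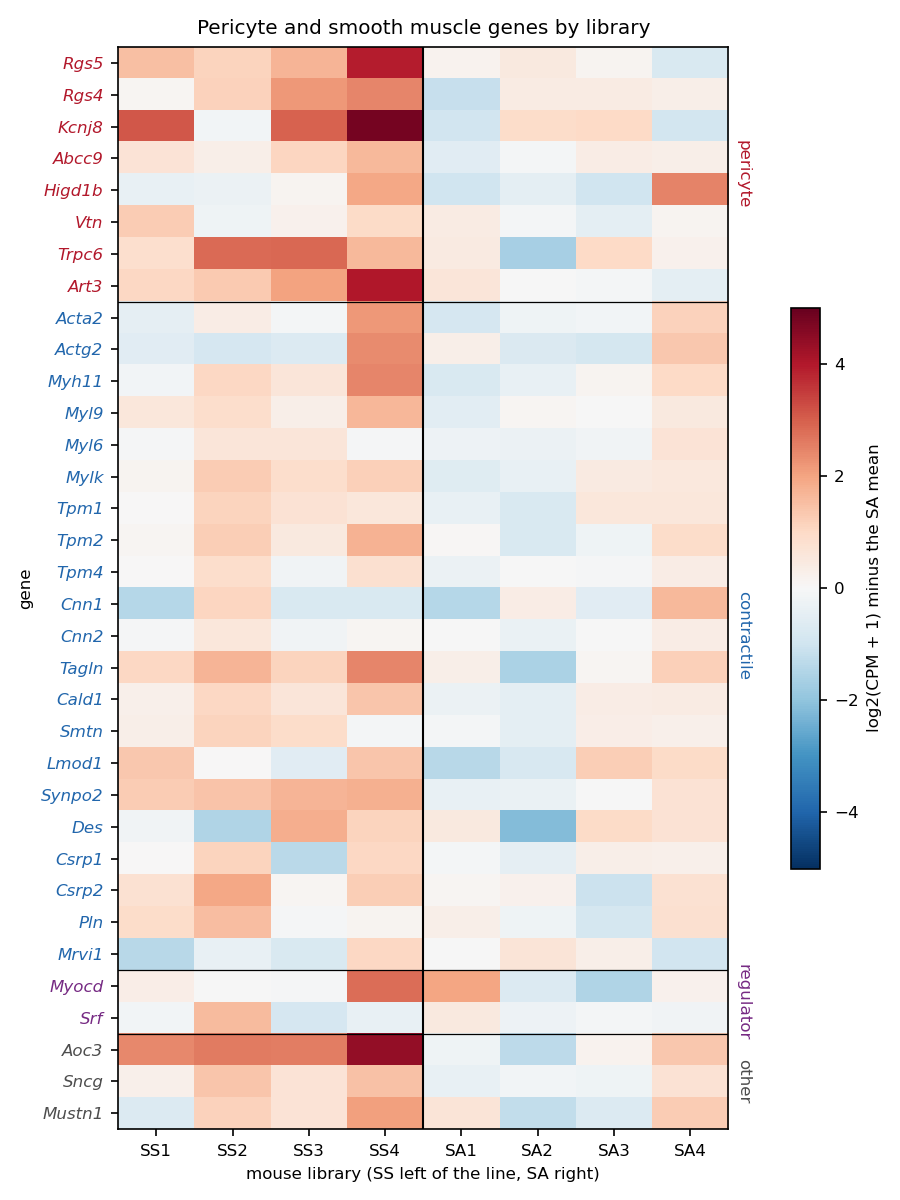
Level of each of the 34 genes (down) in each library (across), as log2(CPM + 1) minus the mean of the 4 SA libraries, with SS left of the line. The column of SS4 is the reddest for most pericyte genes, while the 8 columns differ less in the contractile genes.

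Both regulators of G protein signalling had higher values in SS. Rgs5 was at 932, 725, 1088 and 4998 CPM in SS1 to SS4, against 371, 459, 364 and 192 CPM in SA1 to SA4. The genotypes did not overlap, and SS4 was 4.60 times the next SS library. The log2 fold change was 2.48 (SE 0.60, edgeR adjusted p = 0.520; DESeq2 adjusted p = 0.0124). Without SS4 the log2 fold change was 1.40, and DESeq2 still called the gene (adjusted p = 0.0236). Its paralogue Rgs4, which acts on the same class of G proteins, had 11.4, 24.8, 51.2 and 61.3 CPM in SS1 to SS4, against 4.25, 14.5, 14.5 and 13.4 CPM in SA1 to SA4. SS1 lay inside the SA range and the other 3 SS libraries above it (log2 fold change 1.67, SE 0.56, edgeR adjusted p = 0.695).

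The potassium channel genes differed in how evenly they were spread. Kcnj8 encodes the pore subunit and was at 19.97, 1.23, 17.9 and 67.6 CPM in SS1 to SS4, against 0.263, 3.65, 3.88 and 0.294 CPM in SA1 to SA4. SS2 lay within the SA values and the other 3 SS libraries were above all of them. The log2 fold change was 3.72 (SE 1.19, edgeR adjusted p = 0.695; DESeq2 adjusted p = 0.0379); without SS4 it was 2.69 and DESeq2 no longer called it (adjusted p = 0.313). DESeq2 also lost this call without SS3 (adjusted p = 0.0909), without SA1 (adjusted p = 0.103) and without SA4 (adjusted p = 0.0625). Abcc9, which encodes the regulatory subunit that binds the pore, was spread more evenly, at 302, 228, 387 and 580 CPM in SS1 to SS4, against 126, 173, 241 and 227 CPM in SA1 to SA4. SS2 lay just under the highest SA library, and the log2 fold change was 0.96 (SE 0.31, edgeR adjusted p = 0.695).

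Each of these 2 gene pairs lies side by side in the genome. On GRCm38, Rgs5 (chromosome 1, 169655501 to 169695813, plus strand) and Rgs4 (169741477 to 169747642, minus strand) are 45663 bases apart, and Kcnj8 (chromosome 6, 142564837 to 142571614, minus strand) and Abcc9 (142587862 to 142702315, minus strand) are 16247 bases apart, with 0 protein-coding genes between the members of either pair. The 100 bases before the RefSeq start are printed for 3 of these genes because both neighbours of each pair had higher values in SS (RefSeq, GRCm38.p6). They are Rgs5 at chr1:169655401-169655500 on the plus strand, and on the minus strand Rgs4 at chr1:169747643-169747742 and Kcnj8 at chr6:142571615-142571714. Abcc9 is not shown, since 41 of its 100 bases lie in an exon that GENCODE, whose start for this gene is further upstream than that of RefSeq, gives it. Capitals mark a TATAAA box.
Rgs5: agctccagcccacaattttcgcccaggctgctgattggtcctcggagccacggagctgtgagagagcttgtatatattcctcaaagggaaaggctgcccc
Rgs4: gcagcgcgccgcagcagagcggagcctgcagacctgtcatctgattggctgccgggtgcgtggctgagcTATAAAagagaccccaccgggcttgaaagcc
Kcnj8: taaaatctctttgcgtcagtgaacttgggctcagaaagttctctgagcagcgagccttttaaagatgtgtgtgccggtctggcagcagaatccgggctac
Among these 3 stretches, TATAAA occurred only in Rgs4, from 31 to 26 bases before the start. On either strand of the window from 250 bases before to 50 after a start, TATAAA was found in 7 of the 27 members with a promoter entry (25.9%) and in 15.7% of all 27025 genes.

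The remaining pericyte genes were scarcer, with means of at most 3.82 CPM per kb of exon in SS. Art3, a member of the ADP-ribosyltransferase family, was at 2.04, 2.61, 4.95 and 22.7 CPM in SS1 to SS4, against 1.24, 0.452, 0.368 and 0.0368 CPM in SA1 to SA4. The genotypes did not overlap, although the SA4 value is 1 count and SS4 held 70.3% of the SS sum. The log2 fold change was 3.94 (SE 1.17, edgeR adjusted p = 0.633; DESeq2 adjusted p = 0.0150), and 2.60 without SS4, where DESeq2's adjusted p was 0.258; without SA2 it was 0.0558, and without SS3 DESeq2 gave none. Trpc6, a calcium-permeable cation channel, was highest in other SS libraries, with 6.59, 29.1, 30.0 and 11.7 CPM in SS1 to SS4, against 4.77, 0.313, 7.46 and 3.83 CPM in SA1 to SA4. SS2 and SS3 were the high libraries here, and its log2 fold change was 2.42 without SS4 and 2.24 with it (SE 0.82, edgeR adjusted p = 0.695).

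Vtn and Higd1b had few counts and wide errors. Vtn, which encodes the secreted adhesion protein vitronectin, was at 0.290 to 2.64 CPM in SS and 0.0669 to 1.02 CPM in SA, with 2 to 75 counts per library. Higd1b, a hypoxia-inducible domain gene that marks pericytes in mouse brain and lung, was at 0.528, 0.616, 1.20 and 6.55 CPM in SS1 to SS4, against 0, 0.417, 0 and 9.94 CPM in SA1 to SA4. SS4 and SA4 thus held 73.6% of the SS sum and 96.0% of the SA sum. Its log2 fold change of -0.22 (SE 1.79) became 3.96 without SA4 and -1.72 without SS4, and DESeq2 gave it no adjusted p.

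**Figure D2:**
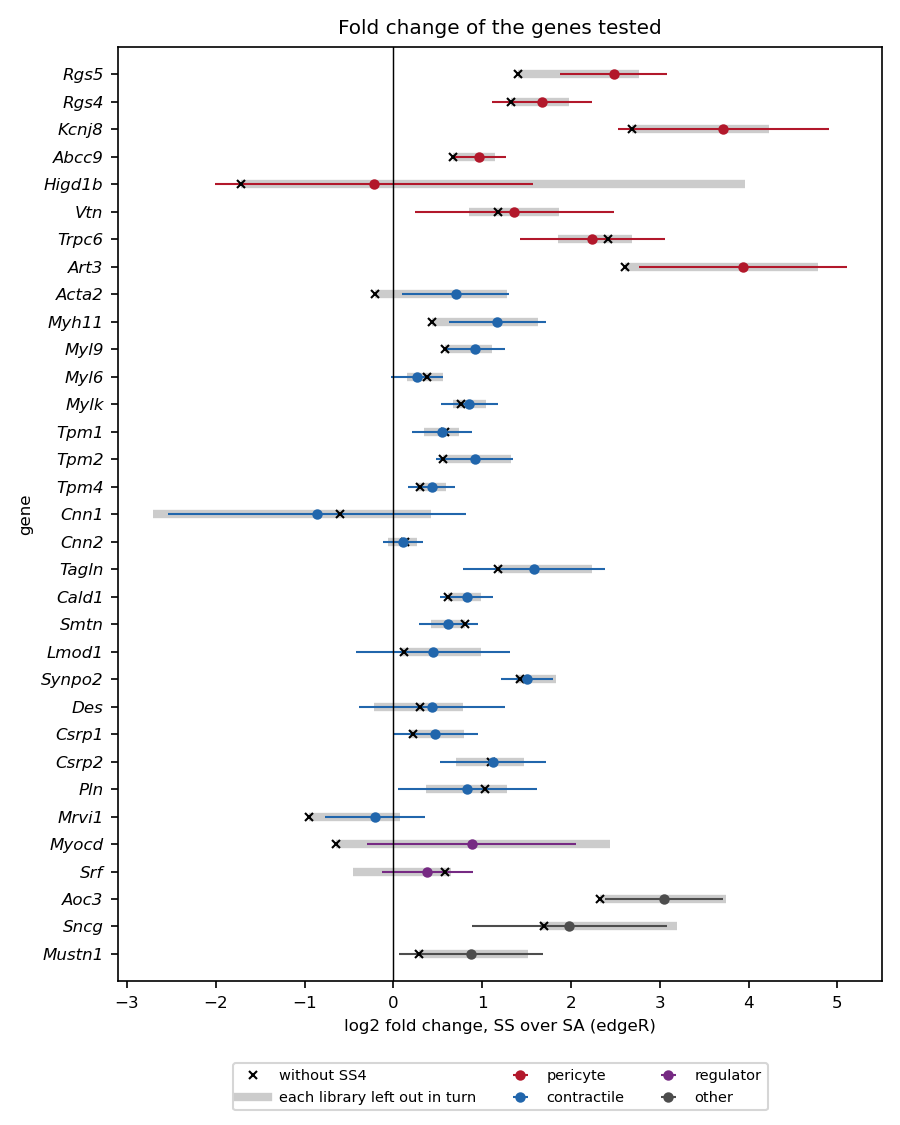
Log2 fold change of SS over SA by edgeR for the 33 genes tested, with bars of 1 SE, grey bands for the range when each library was left out in turn, and crosses for the value without SS4. The pericyte genes other than Higd1b stay right of 0 throughout, while the bands of Acta2, Des, Cnn1, Cnn2, Mrvi1, Myocd, Srf and Higd1b cross 0.

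The core of the contractile apparatus was less clearly separated. Acta2, smooth muscle alpha actin and the usual marker of smooth muscle and of activated fibroblasts, was at 36.2, 64.2, 45.8 and 222 CPM in SS1 to SS4, against 27.0, 42.6, 44.9 and 112 CPM in SA1 to SA4. SS4 alone exceeded SA4, and SS4 and SA4 held 60.3% of the SS sum and 49.4% of the SA sum. The log2 fold change of 0.70 (SE 0.60, edgeR adjusted p = 0.828) turned to -0.21 without SS4. Myh11, the smooth muscle myosin heavy chain, followed the same libraries: 48.2, 112, 81.4 and 298 CPM in SS1 to SS4, against 31.0, 41.7, 58.8 and 108 CPM in SA1 to SA4. Its log2 fold change was 1.17 (SE 0.55), and 0.43 without SS4. Actg2, the gamma actin of visceral smooth muscle, was at 8.74 CPM in SS4 and 3.83 CPM in SA4 and at most 1.32 CPM in the other libraries; it was not tested.

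The kinase and light chains that switch the myosin on were more even. Myl9, the regulatory light chain, was at 70.4, 87.3, 58.4 and 150 CPM in SS1 to SS4, against 31.8, 50.1, 45.7 and 66.3 CPM in SA1 to SA4. Its log2 fold change was 0.92 (SE 0.33, edgeR adjusted p = 0.695), with SS3 alone under the highest SA library. Mylk, the light chain kinase, was at 268, 576, 450 and 552 CPM in SS1 to SS4, against 157, 189, 333 and 344 CPM in SA1 to SA4. SS1 lay inside the SA range, and the log2 fold change was 0.85 (SE 0.32). Myl6, the essential light chain that non-muscle myosin also uses, overlapped widely, at 56.2 to 89.9 CPM in SS and 47.7 to 94.8 CPM in SA. Of the 50-base stretches of its exons, 18.3% also occur in other genes, most of them in Gm5526, so that its count is uncertain.

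Among the tropomyosins and Cald1, which act on the thin filament, Tpm1 and Tpm4 were the most abundant per kb of exon. Their log2 fold changes were the nearest 0 of these genes. Tpm1, a tropomyosin that lies along the actin filament, averaged 1540 ± 473 CPM in SS and 1054 ± 456 CPM in SA (SD, n = 4 each), and Tpm4 averaged 405 ± 142 CPM in SS and 300.4 ± 57.4 CPM in SA. Of Tpm4's 50-base exon stretches, 11.6% also occur in other genes, most of them in Gm7809, so that its count is uncertain. The log2 fold changes of Tpm1 and Tpm4 were 0.55 and 0.43, both with overlapping genotypes. Tpm2, the isoform most typical of smooth muscle among these, had a log2 fold change of 0.91 (SE 0.43), with SS4 at 133 CPM and SA4 at 74.2 CPM the highest of their genotypes. Cald1, which encodes the actin-binding inhibitor caldesmon, was at 498, 854, 644 and 1092 CPM in SS1 to SS4, against 343, 298, 539 and 563 CPM in SA1 to SA4. SS1 lay inside the SA range, and the log2 fold change was 0.82 (SE 0.30, edgeR adjusted p = 0.695).

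The calponins and Tagln, which bind actin in differentiated smooth muscle, gave no common picture. Cnn1, the calponin most specific to smooth muscle, was at 0, 4.67, 0.601 and 0.613 CPM in SS1 to SS4, against 0, 2.50, 0.803 and 7.40 CPM in SA1 to SA4. SS1 and SA1 had 0 counts of it, and its log2 fold change of -0.86 (SE 1.68) was 0.42 without SA4. Cnn2, a broadly expressed calponin, averaged 345 ± 81.9 CPM in SS and 320 ± 67.6 CPM in SA (SD, n = 4 each). Tagln, also called SM22 alpha, was at 7.22, 12.0, 7.77 and 20.7 CPM in SS1 to SS4, against 3.91, 0.347, 3.31 and 8.32 CPM in SA1 to SA4. Its log2 fold change was 1.58 (SE 0.80), but 67.9% of its exon length overlaps Pcsk7 or Gm48529 on the opposite strand, and no source used here says whether the counting used strand.

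Synpo2 was the contractile gene with the clearest separation. It encodes an actin-bundling protein of the Z-disc and of smooth muscle dense bodies, and was at 81.7, 92.4, 113 and 117 CPM in SS1 to SS4, against 25.9, 26.4, 33.2 and 56.9 CPM in SA1 to SA4. No SS library lay in the SA range, and no library held more than 29.0% of the SS sum. The log2 fold change was 1.51 (SE 0.29) and lay between 1.38 and 1.83 with each library left out in turn. edgeR's adjusted p was 0.411 and DESeq2's 0.00156, and DESeq2 also called it under each of the 8 omissions of 1 library.

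The other structural and calcium-handling genes overlapped between genotypes. Smtn, smoothelin, and Lmod1, which nucleates actin filaments, had log2 fold changes of 0.62 and 0.44, with 16.3% of the exon length of Smtn overlapped by Gm11946 or Gm11947 on the opposite strand. Des, the intermediate filament protein desmin, was at 9.44, 3.22, 41.2 and 25.1 CPM in SS1 to SS4, against 15.9, 1.63, 22.3 and 18.6 CPM in SA1 to SA4. SS3 held 52.2% of its SS sum, and without SS3 its log2 fold change was -0.21 in place of 0.43. The LIM-domain proteins Csrp1 and Csrp2 had log2 fold changes of 0.47 and 1.12, with SS2 the highest SS library for each. Pln, the phospholamban that restrains the calcium pump of the sarcoplasmic reticulum, had 0.83, with 64.7% of its exon length overlapped by Cep85l or Gm47644 on the opposite strand. Mrvi1, a partner of the inositol trisphosphate receptor, was at 7.40, 16.1, 12.2 and 44.2 CPM in SS1 to SS4, against 21.2, 33.9, 26.6 and 10.4 CPM in SA1 to SA4. It was thus lower in 3 SS libraries than in 3 SA libraries, with SS4 and SA4 in the opposite order (log2 fold change -0.20, SE 0.56).

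Neither regulator of the apparatus differed beyond its spread. Myocd was at 3.17, 2.21, 2.19 and 21.6 CPM in SS1 to SS4, against 11.8, 1.08, 0.167 and 2.80 CPM in SA1 to SA4. SS4 held 74.0% of the SS sum and SA1 held 74.5% of the SA sum. Its log2 fold change of 0.88 (SE 1.18) was -0.64 without SS4. Srf was at 24.0, 81.5, 14.4 and 20.3 CPM in SS1 to SS4, against 37.5, 22.1, 24.8 and 23.2 CPM in SA1 to SA4; SS2 held 58.1% of the SS sum, and the log2 fold change of 0.38 (SE 0.51) was -0.46 without SS2. Within SS, the libraries with the most Myocd (SS4) and the most Srf (SS2) were thus different ones, and both were also the highest in many contractile genes. Within SA it was otherwise: SA1 had the most of both regulators and was the highest for 0 of the 20 contractile genes tested. SA4 was the highest for 15 of them, with Myocd at 2.80 CPM and Srf at 23.2 CPM. A link between the regulators and the contractile genes was not tested.

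The CArG box that Srf binds was searched on both strands from 250 bases before to 50 bases after the start of the 27 members with a RefSeq promoter entry. It was present in 5 of them (18.5%), against 1.81% of all 27025 genes, a count of letters and not of bound sites. These were Myl9, Myl6, Cnn2 and Srf itself, and 1 pericyte gene, Trpc6. The stretches of 4 are printed because they are the letters behind that share, with the box in capitals (RefSeq, GRCm38.p6). They are Myl9 at chr2:156775268-156775347, Cnn2 at chr10:79988509-79988588 and Trpc6 at chr9:8543985-8544064 on the plus strand, and Srf at chr17:46556190-46556269 on the minus strand. The last 5 bases of the Cnn2 stretch lie in a GENCODE exon of that gene. The Myl6 stretch is not shown, since its RefSeq start lies inside the GENCODE gene and all 80 bases are in an exon of Myl6.
Myl9: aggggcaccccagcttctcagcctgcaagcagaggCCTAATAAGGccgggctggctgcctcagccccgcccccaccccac
Cnn2: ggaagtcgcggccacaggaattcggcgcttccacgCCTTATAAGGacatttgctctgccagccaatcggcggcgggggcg
Srf: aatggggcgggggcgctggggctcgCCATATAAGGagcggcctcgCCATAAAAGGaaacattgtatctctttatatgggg
Trpc6: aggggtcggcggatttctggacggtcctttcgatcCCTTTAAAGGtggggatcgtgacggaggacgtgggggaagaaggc
The box lay 161 to 152 bases before the start in Myl9, 122 to 113 in Trpc6, 56 to 47 in Cnn2 and 50 to 41 in Myl6, and Srf held a pair of boxes, 82 to 73 and 62 to 53 bases before its start. The 5 genes with a box had log2 fold changes of 0.92 (Myl9), 0.26 (Myl6), 0.11 (Cnn2), 0.38 (Srf) and 2.24 (Trpc6), a spread from 0.11 to 2.24. Promoters of Myh11, Tagln, Myocd, Actg2, Csrp2, Higd1b and Aoc3 were not analysed here.

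Of the 3 remaining genes, Aoc3 had the largest separation. It encodes a surface amine oxidase that is abundant in smooth muscle and fat, and was at 57.7, 66.2, 64.3 and 227 CPM in SS1 to SS4, against 8.46, 3.40, 11.4 and 27.0 CPM in SA1 to SA4. Every SS library was above every SA library, and within each genotype replicate 4 was the high one. The log2 fold change was 3.05 (SE 0.66, edgeR adjusted p = 0.415 and DESeq2 adjusted p = 0.00160). Without SS4 it was 2.32, and DESeq2 called the gene under each of the 8 omissions of 1 library. Of its 50-base exon stretches, 6.66% also occur elsewhere, most of them in Aoc2. Sncg, gamma-synuclein, was at 0.705 to 2.97 CPM in SS and 0.113 to 1.32 CPM in SA, and Mustn1, a small nuclear protein of muscle and skeleton, at 2.47 to 21.8 CPM in SS and 1.35 to 12.3 CPM in SA. Both overlapped between genotypes, with log2 fold changes of 1.98 (SE 1.10) and 0.87 (SE 0.81).

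Divided by exon length, levels can be ordered between genes. Rgs5 had the highest mean in SS, at 426 CPM per kb, followed by Tpm1 (237), Tpm4 (184, from an uncertain count) and Cnn2 (140 CPM per kb). In SA the order was Tpm1 (163), Tpm4 (136), Cnn2 (130) and Rgs5 (76.2 CPM per kb). The position of Rgs5 in SS came from SS4, where it was at 1099 CPM per kb, against 159 to 239 CPM per kb in the other SS libraries, a range that Tpm1 at 153 to 330 CPM per kb in SS overlapped. Myh11 at 17.8 CPM per kb in SS and 7.89 in SA, and Acta2 at 41.9 in SS and 25.8 in SA, stood well under the widely expressed tropomyosins. Among the low ones were Cnn1 at 0.538 CPM per kb in SS and 0.978 in SA, and Actg2 at 1.49 in SS and 0.853 in SA.

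The pericyte and contractile genes were then set against each other within each library, as the mean of log2(CPM + 1) over each set minus the mean of that value in SA. For the 8 pericyte genes it was 1.02, 0.76, 1.64 and 2.66 in SS1 to SS4, against -0.25, -0.07, 0.17 and 0.15 in SA1 to SA4. The lowest SS library lay 0.76 above the SA mean, outside the SA range. For the 20 contractile genes it was 0.15, 0.85, 0.30 and 1.06 in SS1 to SS4, against -0.31, -0.41, 0.08 and 0.64 in SA1 to SA4. Here SA4 lay above SS1 and SS3. The difference of the sets was near 0 in SS2 (-0.09), whose contractile value was high and whose pericyte value was the lowest in SS, and was 0.87, 1.35 and 1.59 in SS1, SS3 and SS4. It was 0.06, 0.34, 0.09 and -0.49 in SA1 to SA4. No test was made of these set values, since the genes were chosen with results known.

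**Figure D3:**
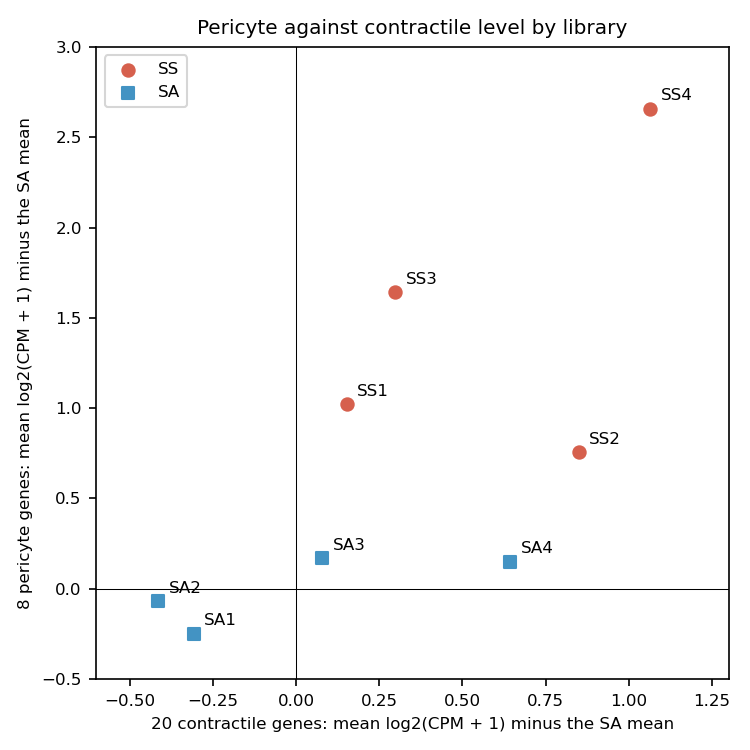
Each library placed by its mean level of the 20 contractile genes tested (horizontal) and the 8 pericyte genes (vertical), both as log2(CPM + 1) minus the SA mean. The SS libraries (circles) lie above all SA libraries (squares) on the vertical axis and mix with them on the horizontal axis.

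Single libraries carried much of these values. SS4 was the highest SS library for 19 of the 33 genes tested (57.6%), against 22.5% of all genes tested, and SS2 for 11. Among the pericyte genes SS4 was highest for 6 of 8. The contractile genes were split between SS2, highest for 10 of 20, and SS4, highest for 9. In SA, replicate 4 was the highest library for 15 of the 20 contractile genes (75.0%), against 27.2% of all genes tested, but for 1 of the 8 pericyte genes. The highest SS library held a median of 43.4% of the SS sum over the 33 genes and 37.9% over all genes tested. It held over 50% in 13 of the 33 (39.4%), against 23.7% of all genes tested. In Rgs5 that was 64.6%, in Kcnj8 63.3%, in Myh11 55.2%, in Mrvi1 55.3% and in Cnn1 79.4%, the last from SS2. Aoc3 had 54.7%. Mustn1, at 50.2%, was just inside this limit, with 21.8 CPM in SS4 and 11.2 CPM in SS2, and Vtn, at 47.4% in SS1, was the nearest outside it.

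**Figure D4:**
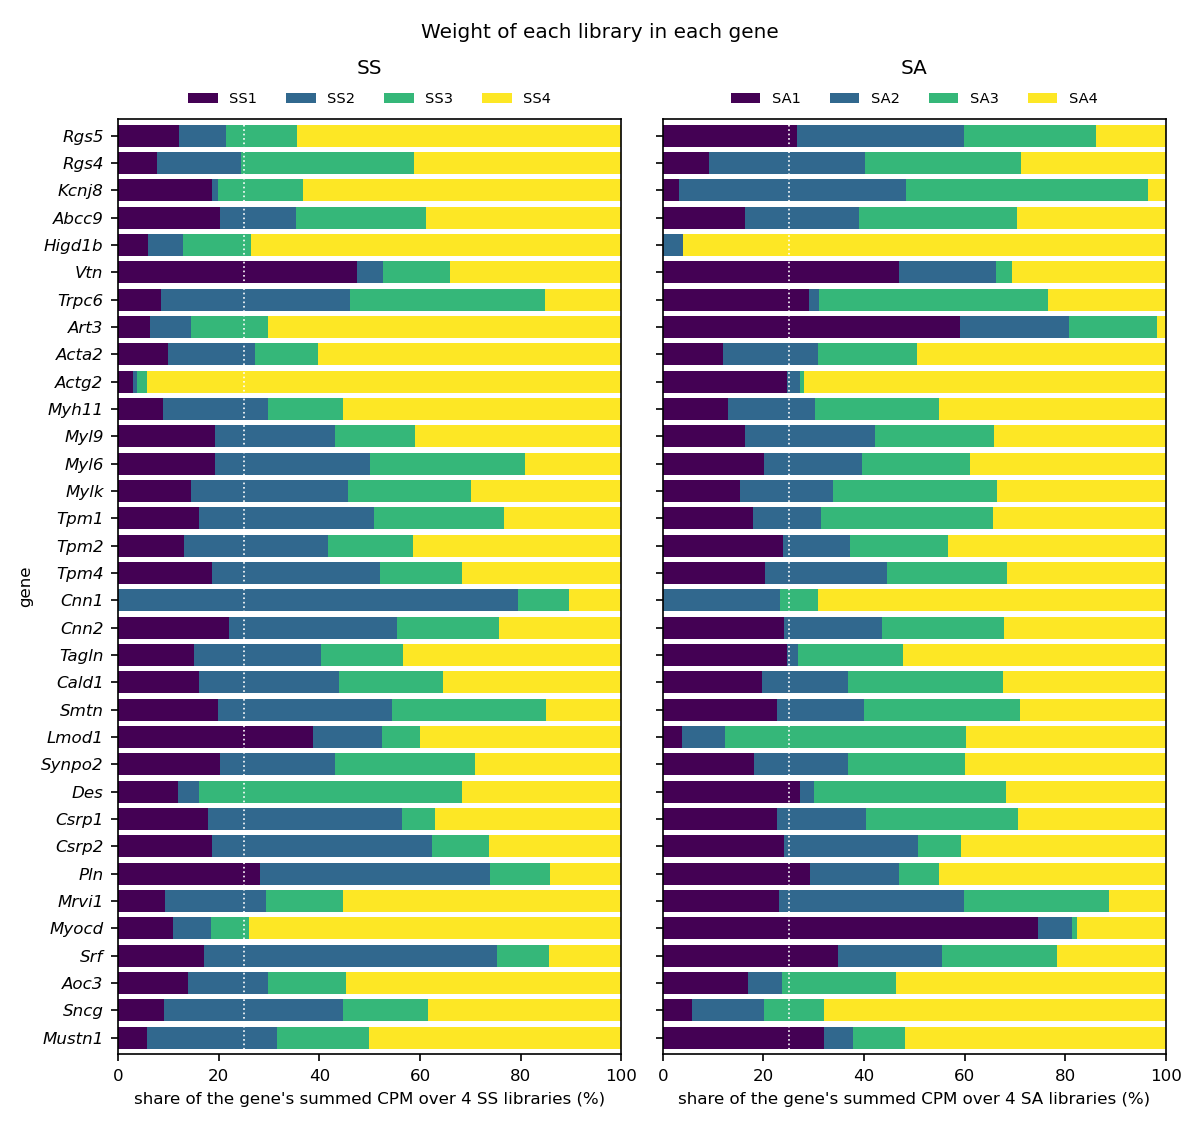
Share of each gene's summed CPM that came from each of the 4 libraries of its genotype (SS left, SA right), with a dotted line at an equal share for the library drawn first. SS4 holds over 50% of the bar for Rgs5, Kcnj8, Higd1b, Art3, Acta2, Actg2, Myh11, Mrvi1, Myocd, Aoc3 and Mustn1, and SA4 for Higd1b, Actg2, Cnn1, Tagln, Aoc3, Sncg and Mustn1.

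Without SS4, 28 of the 33 genes were still higher in SS, with a median log2 fold change of 1.36 in the pericyte genes and 0.50 in the contractile genes. DESeq2 then called 3 members, Aoc3, Rgs5 and Synpo2, among 221 genes called in both directions. The same 3 were called without SS3, among 171 genes. With all libraries it had called 5 members among 315 genes. Without SA4, 32 of the 33 were higher in SS and the medians were 2.25 and 0.87. The share of all genes that were higher in SS was not computed for these omissions. The 7 pericyte genes other than Higd1b had higher values in SS with and without SS4, while Acta2 and Myocd changed direction without it.

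Leukocyte RNA was present in every library and ran opposite to the contractile genes. The summed level of 15 leukocyte genes was 2885, 481, 1240 and 371 CPM in SS1 to SS4, against 4344, 4901, 1490 and 803 CPM in SA1 to SA4, with none of the 15 at 0 in all libraries. The genotypes overlapped, and a two-sided exact permutation test did not reach the threshold (p = 0.200, adjusted over 4 lists 0.571; the smallest p that 70 arrangements allow is 0.0286). All 15 genes had a lower fitted level in SS. Ordered by this sum from low to high, the libraries ran SS4, SS2, SA4, SS3, SA3, SS1, SA1 and SA2. Ordered by the contractile value from high to low they ran the same way, except that SS1 and SA3 changed places. The pericyte value followed no such order: SS2 had the lowest in SS with little leukocyte RNA, and SA4 stayed near the SA mean. With the mean log2 CPM of the leukocyte genes as a covariate in edgeR, the median log2 fold change was 1.67 for the pericyte genes and 0.15 for the contractile genes. Rgs5 then had 1.99, Kcnj8 3.53, Art3 3.52 and Aoc3 2.25, Synpo2 had 1.22, Myh11 0.07 and Acta2 -0.38. The other pericyte genes had 1.09 (Rgs4), 0.70 (Abcc9), 1.61 (Trpc6), 1.74 (Vtn) and -1.19 (Higd1b). No member passed that test. Without the 3 libraries richest in leukocyte RNA (SS1, SA1 and SA2) the medians were 1.89 and 0.47.

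**Figure D5:**
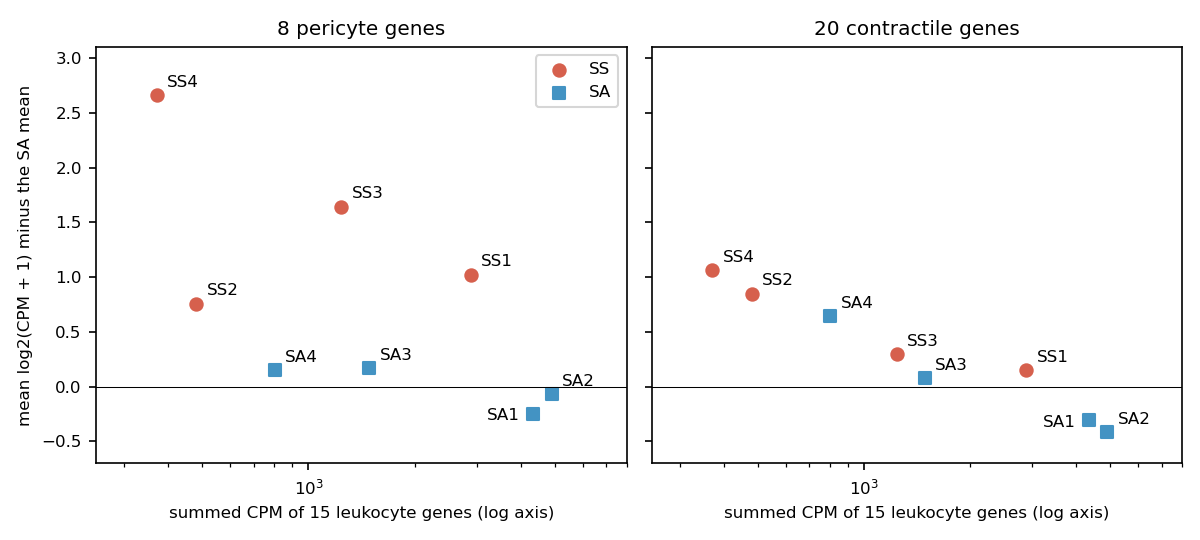
Summed CPM of 15 leukocyte genes in each library (horizontal, log axis) against the mean level of the 8 pericyte genes (left) and the 20 contractile genes (right), as log2(CPM + 1) minus the SA mean. The contractile level is highest in SS4, at 371 CPM of leukocyte genes, and lowest in SA2, at 4901 CPM, while the SS libraries (circles) stay above the SA libraries (squares) in the pericyte level.

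The summed markers of other cells that the sample could hold overlapped between the genotypes. The 15 endothelial genes summed to 226, 25.2, 39.0 and 35.6 CPM in SS1 to SS4, against 160, 111, 33.6 and 23.0 CPM in SA1 to SA4, so that SS4 was not rich in them. The 15 skeletal muscle genes, 2 of them at 0 in all libraries, summed to 20.4 to 47.98 CPM in SS and 19.8 to 32.4 CPM in SA, and 7 cardiac muscle genes to 4.05 to 10.4 CPM in SS and 6.40 to 23.6 CPM in SA. The 8 Schwann cell genes summed to 64.6 to 117 CPM in SS and 48.2 to 70.9 CPM in SA, mostly S100b and Mbp, with the Schwann cell factor Sox10 at most 0.278 CPM; Ngfr, also expressed by marrow stromal cells, was at 13.5 CPM in SS4 and 0.0724 to 2.11 CPM in the other SS libraries. Exact permutation tests of the endothelial (p = 1), skeletal muscle (p = 0.771) and Schwann (p = 0.286) sums did not reach the threshold. The 14 stromal genes summed to 24380 to 33475 CPM in SS and 15698 to 34072 CPM in SA, lowest in SA2 and SA1. Of these 14, 12 had a higher fitted level in SS (85.7%), with a median log2 fold change of 0.31. The 12 fibroblast genes summed to 3208 to 8984 CPM in SS and 2567 to 12110 CPM in SA, with means of 6316 and 6917 CPM. Of the 11 fibroblast genes tested, 7 were higher in SS. DESeq2 called 3 of them, Col3a1, a fibrillar collagen (adjusted p = 0.000416), the surface protein Thy1 (0.00382) and Ly6a, which encodes Sca-1 (0.0449). It called 0.914% of all its genes higher in SS. In 3 of the 11 fibroblast genes every SS library lay above every SA library, against 2.36% of all genes tested. The 10 osteoblast genes summed to 4740 to 18096 CPM in SS and 6363 to 24437 CPM in SA, with means of 11758 and 15596 CPM. Of these 10, 3 were higher in SS and 0 were called by either tool. At an unadjusted p under 0.05 by edgeR, 3 were lower and 0 higher. Over all 17316 genes tested, 512 were lower at that limit. The part of any of these in the values above was not tested beyond the covariate and the omissions given.

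Further mural genes were mostly higher in SS too. Of 28 further mural cell genes tested, 26 were higher in SS (92.9%), with a median log2 fold change of 0.98. The share higher in SS was 48.98% over all genes tested and 85.7% over the 14 stromal genes. None passed edgeR, and 11 had an unadjusted p under 0.05, all higher, against 4.03% of all genes tested. DESeq2 called 3, Notch3 (adjusted p = 0.00653), Anpep (0.0141) and Heyl (0.0354), against 0.914% of all its genes called higher. Notch3, the receptor through which endothelium instructs mural cells, was at 133, 141, 152 and 213 CPM in SS1 to SS4, against 76.3, 61.4, 95.7 and 73.6 CPM in SA1 to SA4. Its genotypes did not overlap, with SS4 the highest library. Its target Heyl averaged 101 ± 23.8 CPM in SS and 56.2 ± 6.76 CPM in SA, and the surface peptidase Anpep 53.9 ± 15.9 CPM in SS and 23.6 ± 4.16 CPM in SA (SD, n = 4 each). Gucy1a3, a subunit of the nitric oxide receptor of mural cells, averaged 143 ± 57.3 CPM in SS and 71.2 ± 17.8 CPM in SA. The general mural markers were less separated: Pdgfrb, which stromal cells share, was at 634 to 810 CPM in SS and 303 to 677 CPM in SA (log2 fold change 0.55), and Cspg4, which encodes NG2, at 6.01 to 41.9 CPM in SS and 9.45 to 26.5 CPM in SA (0.19). SS4 was the highest SS library for 20 of these 28 genes (71.4%).

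The wider cytoskeleton and the partners and targets of Srf had medians nearer 0. Of 46 other genes of the actin and myosin cytoskeleton tested, 29 were higher in SS (63.0%) and 17 lower, with a median log2 fold change of 0.16. The share higher was 48.98% over all genes tested. At an unadjusted p under 0.05 by edgeR, 6 were higher and 2 lower, against 697 (4.03%) and 512 of all 17316 genes tested. DESeq2 called 1 higher, against 0.914% of all its genes. This was the sarcoplasmic calcium-binding protein Casq2 (log2 fold change 3.95, DESeq2 adjusted p = 0.0216). It was at 0.317, 1.88, 2.37 and 8.09 CPM in SS1 to SS4 and at most 0.451 CPM in SA. The kinase Prkg1, which relaxes smooth muscle under nitric oxide, had a log2 fold change of 1.02 and the LIM protein Fhl2 0.91, neither called by either tool. Sorbs2, an adaptor of the actin cytoskeleton, had 1.04. Of 19 cofactors, partners and immediate targets of Srf tested, 11 were higher in SS, with a median log2 fold change of 0.12 and 0 called by either tool. Cyr61 had the smallest p of them, averaging 888 ± 298 CPM in SS and 423 ± 111 CPM in SA (log2 fold change 1.07, edgeR adjusted p = 0.595), and the YAP partner Tead1 was at 253 to 312 CPM in SS and 117 to 276 CPM in SA (log2 fold change 0.55).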

How the data were processed

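RNA was measured by bulk sequencing of sorted stromal cells from 4 SS and 4 SA mice, using a low-input library kit (labels' protocols). The deposited values are raw read counts made by the authors, with genes named by symbol and 1 column per mouse for its 2 lanes; 21138 of 52459 genes had no counts. Tools named in the submitters' processing notes are STAR, featureCounts, DESeq2 and bcl2fastq, and builds mm10 and GRCm38. No source used here gives the strand setting or the annotation, and reads shared by overlapping genes or near-identical copies could not be told apart. A further deposited table of normalised values was not used.

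Counts were tested with edgeR 4.0.16 (R 4.3.3), with TMM factors, low counts removed by filterByExpr, the robust quasi-likelihood F test, Benjamini-Hochberg adjustment over 17316 genes and no covariates; the threshold was 0.05. CPM are counts over TMM-adjusted totals, and SE is the log2 fold change over the root of F. DESeq2 1.42.0, other factors and filters, a leukocyte covariate, the replicate block and omission of libraries were alternatives. DESeq2 fits without 1 or 3 libraries were added after seeing the data. Scripts were tested on simulated data. Positions and lengths are from GENCODE M21 (GRCm38), matched by symbol for all 34 genes, and promoters from RefSeq.

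The genes, lists and tests were chosen with earlier results of these data known. Named are all 34 genes, up to 4 per other list with the smallest edgeR p, and the markers of sort and mural cells.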

Additional observations from a re-analysis of the deposited data

Results flagged for a closer look

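In 13 of 68 groups of 4 libraries (34 genes in 2 genotypes), 1 library stood far from the other 3: its gap to the nearest of them, divided by the group's range, passed Dixon's 95% limit. For normally distributed values, that limit is passed in about 1 in 20 such groups. Here it was applied to CPM without a logarithm, and the share over all genes was not computed. Whether 13 is more than these libraries give for other genes was thus not tested. Of the 13, 9 were in SS, 7 of them from SS4 and 2 from SS2, and 4 were in SA.

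SS4 stood apart high in Rgs5 (4998 CPM, next 1088), Aoc3 (227 CPM, next 66.2), Acta2 (222 CPM, next 64.2), Art3 (22.7 CPM, next 4.95), Myocd (21.6 CPM, next 3.17), Actg2 (8.74 CPM, next 0.282) and Higd1b (6.55 CPM, next 1.20). These include pericyte genes, contractile genes and the cofactor Myocd. SS2 stood apart high in Srf (81.5 CPM, next 24.0) and Cnn1 (4.67 CPM, next 0.613). In SA, replicate 4 stood apart high in Myl6 (94.8 CPM, next 52.1), Higd1b (9.94 CPM, next 0.417) and Sncg (1.32 CPM, next 0.278), and replicate 1 stood apart low in Rgs4 (4.25 CPM, next 13.4).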

How the results depend on the processing

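Alternatives left the directions of the pericyte and contractile medians and of most genes in place. Genes called numbered 0 by edgeR, 315 by DESeq2 (both directions), 5 with no low-count filter, 1 with the leukocyte covariate, and 0 to 1 with each library left out; no member was among those of edgeR. DESeq2 called 165 to 878 genes and 3 to 6 members with each library left out (chosen after seeing the data). The contractile median was 0.15 with the leukocyte covariate. That covariate turned the log2 fold change in Acta2 (-0.38), Cnn2 (-0.15), Csrp1 (-0.20), Srf (-0.042) and Mustn1 (-0.41), and omission of the 3 leukocyte-rich libraries turned Cnn2 (-0.012), Lmod1 (-0.66) and Mrvi1 (0.39). Leaving out single libraries gave ranges across 0 in Higd1b (-1.72 to 3.96), Cnn1 (-2.71 to 0.42), Cnn2 (-0.060 to 0.26), Mrvi1 (-0.95 to 0.074), Srf (-0.46 to 0.65), Des (-0.21 to 0.79), Acta2 (-0.21 to 1.27) and Myocd (-0.64 to 2.43). The causes were not tested. Summed endothelial CPM, SS minus SA, was 0.126 with library totals only. With single omissions, it ran from -48.7 to 25.6 CPM, and that of skeletal muscle markers from -3.68 to 5.52 CPM.

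Same-numbered SS and SA libraries had correlations of -0.15 to 0.22 in their deviations. SS1 and SS4 correlated best with their own numbers, SS2 and SS3 did not. With so few values and no reference for them, this cannot decide whether the numbers pair the libraries. The replicate block called 0 genes and gave Higd1b 2.47. Genes with few counts in several libraries (Higd1b, Vtn, Cnn1, Actg2, Sncg, Art3) are uncertain in level, and the part of sequencing depth in this was not tested.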
